A study of Mus musculus with 2 samples.

Results

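The genes described are 8 members of the Wnt pathway, 4 ligands (Wnt2b, Wnt5a, Wnt7a and Wnt7b) and 4 genes whose transcription is widely used as a readout of the β-catenin branch (Axin2, Lef1, Nkd1 and Sp5). They were chosen by gene symbol and are 8 of the 31053 genes counted in each library. Cells came from mouse eye cups at e15.5, from which cornea, lens and optic nerve had been removed, and were profiled by 10x Genomics 3′ single-cell RNA-seq. Both genotypes carried Myrf fl/fl, that is, loxP sites in both copies of the transcription factor gene Myrf. The mutant also carried Rx>cre, a transgene that expresses Cre recombinase in the early eye field, the origin of retina, retinal pigment epithelium (RPE) and optic stalk, but not of surface ectoderm or periocular mesenchyme. There was 1 library per genotype, each from 3 pooled eye cups, so every difference between genotypes is one between 2 libraries, without a replicate check and without a test.

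Wnt proteins are secreted, lipid-modified ligands that bind Frizzled receptors on nearby cells. In the β-catenin branch, binding with the co-receptors Lrp5 or Lrp6 stops the destruction of β-catenin, which then enters the nucleus and activates genes with the TCF and LEF factors. Wnt5a acts mostly without β-catenin, through receptors such as Ror2. In the eye, Wnt signaling is known for patterning the rim of the optic cup, for maintaining RPE identity and for growth of the surface epithelium and its glands.

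Among the response genes, Axin2 (ENSMUSG00000000142, GRCm38 chr11:108920349-108950783, plus strand) encodes a scaffold of the complex that destroys β-catenin. Lef1 (ENSMUSG00000027985, chr3:131110471-131224356, plus strand) encodes a DNA-binding partner of β-catenin. Nkd1 (ENSMUSG00000031661, chr8:88521354-88594884, plus strand) encodes a binding partner and inhibitor of Dishevelled, and Sp5 (ENSMUSG00000075304, chr2:70474923-70477729, plus strand) a zinc finger transcription factor. The ligand genes are Wnt2b (ENSMUSG00000027840, chr3:104945272-104961921, minus strand), Wnt5a (ENSMUSG00000021994, chr14:28504750-28527448, plus strand), Wnt7a (ENSMUSG00000030093, chr6:91363981-91411363, minus strand) and Wnt7b (ENSMUSG00000022382, chr15:85535437-85582473, minus strand).

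RefSeq promoter entries on GRCm38.p6 were matched for 6 of the 8 members, 9 entries in all, and not for Wnt5a or Wnt7b. In the 250 bases before each start site, 2 motifs were searched on both strands: the TCF and LEF core CTTTGAT (reverse complement ATCAAAG), held by 3.21% of 32851 promoters, and its shorter part CTTTGA (reverse complement TCAAAG), held by 13.8%. Every CTTTGAT is also a CTTTGA. Given here, 5′ to 3′ with matches in capitals, are Sp5, whose window held 2 matches, 204 and 104 bases before the start site, of which 1 was the longer motif, and the fourth entry of Lef1, whose window held 2 short matches at 180 and 120 bases. Axin2 is shown as a response gene whose window held neither motif, as was also so for Nkd1, Wnt2b, Wnt7a and the other 3 entries of Lef1. A match is a description of the letters only.
Sp5, chr2:70474673-70474922, plus strand: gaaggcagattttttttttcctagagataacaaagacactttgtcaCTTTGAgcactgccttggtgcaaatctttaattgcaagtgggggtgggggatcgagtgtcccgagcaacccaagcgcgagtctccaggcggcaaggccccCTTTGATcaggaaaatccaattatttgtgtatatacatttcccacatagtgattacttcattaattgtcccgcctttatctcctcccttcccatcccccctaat
Lef1, chr3:131156044-131156293, plus strand: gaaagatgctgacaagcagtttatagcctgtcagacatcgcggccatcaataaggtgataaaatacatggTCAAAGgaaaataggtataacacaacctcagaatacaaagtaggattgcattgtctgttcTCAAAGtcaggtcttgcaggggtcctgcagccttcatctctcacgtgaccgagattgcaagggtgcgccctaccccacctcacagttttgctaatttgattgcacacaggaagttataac
Axin2, chr11:108920099-108920348, plus strand: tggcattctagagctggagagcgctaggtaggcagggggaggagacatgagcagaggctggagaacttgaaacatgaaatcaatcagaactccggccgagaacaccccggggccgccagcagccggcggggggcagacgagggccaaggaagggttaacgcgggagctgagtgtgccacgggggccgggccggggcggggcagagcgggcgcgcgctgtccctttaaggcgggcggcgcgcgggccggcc

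The libraries held 13017 control and 13880 mutant barcodes, of which 11518 and 12576 were kept, with medians of 9799.5 and 8938.5 UMIs (unique molecular identifiers, 1 per captured transcript). The libraries shared 69 barcodes, 59 of them among kept cells. Xist was detected in 71.7% of control and 27.4% of mutant kept cells, and Y-linked genes in 0.0260% and 41.7%, so the pools differed in the sex of the embryos. Myrf in RPE was 77.2 counts per 1000000 UMIs of the class (CPM, 95% counting interval 68.6 to 86.6) in the control and 29.5 CPM (22.3 to 38.5) in the mutant, and it was not established whether the counted 3′ end lies outside the deleted part.

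Clusters were named from marker genes, and each class name below stands for cells that are "-like" by those markers. Surface epithelium held 81 control and 109 mutant cells, RPE 372 and 204, periocular mesenchyme 2682 and 1962, and retinal progenitors 2330 and 3448. A further cluster, rich in Zic1, was split after the data were seen into 14 control and 19 mutant ciliary margin cells (Aldh1a1, Wfdc1 and Msx1 detected, Pax2 at 0 UMIs) and 44 and 42 further cells, which are given no cell type name and are called Pax2/Zic1 cells here. Zic1 was detected in 76 and Pax2 in 57 of these 86 cells, and Cartpt, the first leading gene of the undivided cluster, in 23. All 8 surface epithelium markers and all 10 mesenchyme markers were highest in the class they name, as were 5 of 6 ciliary margin, 6 of 8 progenitor and 6 of 10 RPE markers. Since the clusters were named by these same lists, the counts describe the naming and are no check of it. Within the Zic1-rich cluster, the margin was taken as the sub-cluster highest in Msx1 and Wfdc1 together. Although the cornea had been removed, the surface epithelium held 7522 and 8310 CPM of its 8 markers summed. A UMI is counted at the 3′ end of a transcript, so CPM does not scale with gene length. The sums below are over cells of a class, so fewer expressing cells and less RNA per cell cannot be told apart from CPM alone.

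Wnt5a was the only member ligand with a high level in mesenchyme, which held 79.1% of its 5474 UMIs in the control and 77.8% of 4251 in the mutant. Its level in mesenchyme was 115 CPM (112 to 119) in control and 117 CPM (113 to 121) in mutant cells. RPE was next at 51.1 CPM (44.2 to 58.8) and 62.9 CPM (52.0 to 75.3), and surface epithelium followed at 27.7 CPM (19.8 to 37.8) and 33.3 CPM (25.6 to 42.6). The order mesenchyme, RPE, surface epithelium held in both libraries with intervals of the ratios that left out 1, while surface epithelium and ciliary margin (33.0 and 11.8 CPM, from 5 and 3 UMIs) did not differ beyond counting error. Retinal progenitors held 4.80 CPM (3.99 to 5.72) and 4.54 CPM (3.87 to 5.29).

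At least 1 Wnt5a UMI was found in 61.8% of control and 60.8% of mutant mesenchyme cells, and in 19.8% and 18.9% after each cell was thinned to 2000 UMIs. In erythroid cells, which served as a class without the gene, the shares were 0.208% and 0.950%, and 0 of 458 and 0 of 406 cells after thinning, at median depths of 16815.5 and 16806 UMIs against 13200 and 13729 in mesenchyme. The RPE shares of 28.8% and 31.9% came from shallower cells, with medians of 6809.5 and 3558 UMIs, and were 7.32% and 14.8% after thinning.

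Wnt2b, a β-catenin ligand known from the rim of the optic cup and the RPE, was sparse. It had 89 UMIs in the control library and 84 in the mutant, of which 19.1% and 11.9% were in RPE and 60.7% and 72.6% in mesenchyme. Relative to class size the RPE was highest, at 4.48 CPM (2.61 to 7.17) and 5.37 CPM (2.58 to 9.88), against 1.44 CPM (1.08 to 1.88) and 2.16 CPM (1.65 to 2.77) in mesenchyme. The ratio of RPE to mesenchyme was 3.11 (1.69 to 5.45) in the control and 2.49 (1.14 to 4.89) in the mutant. The mean RPE level of both libraries, 4.93 CPM, was 2.41 CPM with mitochondrial UMIs limited to 5% of a cell and 2.52 CPM without the UMIs of the 5 cells per library richest in the gene, and after thinning to 2000 UMIs per cell Schwann cells were highest, at 6.41 CPM. In ciliary margin and Pax2/Zic1 cells Wnt2b was at 0 UMIs in both libraries, where 3 counts would have been 19.8 and 11.8 CPM in the margin, so the depth did not allow a level like that of RPE to be seen there. Wnt7a was close to absent from these libraries, with 2 UMIs in 2 cells in each, and was not compared further.

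Wnt7b, a β-catenin ligand, was near 0 in mesenchyme and RPE and high in 2 small classes. The Pax2/Zic1 cells held 101 control and 65 mutant UMIs, 239 CPM (194 to 290) and 148 CPM (114 to 188). The surface epithelium held 65 and 143 UMIs, 45.1 CPM (34.8 to 57.5) and 75.6 CPM (63.7 to 89.0). These were the only classes above 5 CPM, and the Pax2/Zic1 level exceeded the epithelial level 5.29-fold (3.84 to 7.34) in the control and 1.95-fold (1.43 to 2.64) in the mutant. Retinal progenitors held 3.25 CPM (2.59 to 4.02) and 4.15 CPM (3.51 to 4.87), which over so many cells made up 29.2% and 37.4% of all Wnt7b UMIs. Mesenchyme held 11 and 4 UMIs, and erythroid cells 0 in both libraries.

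**Figure D1:**
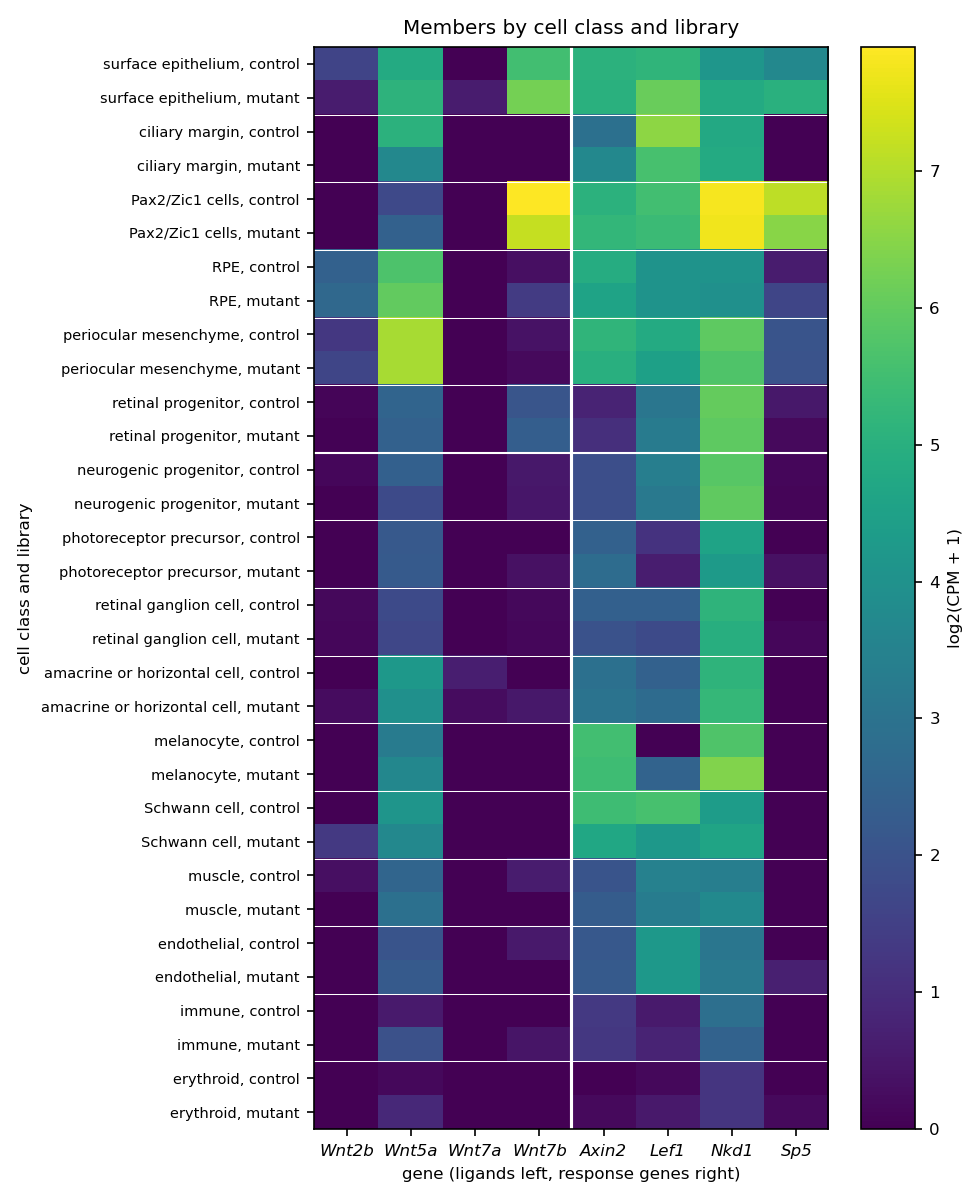
Level of each member as log2(CPM + 1) in 16 cell classes and both libraries, with the 6 classes described in the text above the thick line and the 4 ligands left of the vertical line. Wnt5a is brightest in mesenchyme (115 and 117 CPM), while Wnt7b, Nkd1 and Sp5 are brightest in Pax2/Zic1 cells.

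Among the response genes, Axin2 was at like levels in several classes. Surface epithelium held 32.6 CPM (23.9 to 43.3) in control and 31.7 CPM (24.2 to 40.8) in mutant cells, mesenchyme 34.9 CPM (33.0 to 36.8) and 31.0 CPM (29.0 to 33.2), and RPE 28.7 CPM (23.6 to 34.7) and 23.1 CPM (16.7 to 31.1). Melanocytes (44.1 and 42.3 CPM), Pax2/Zic1 cells (33.1 and 36.3 CPM) and Schwann cells (43.0 and 25.1 CPM) lay in the same range. In the order of levels none of these 6 classes differed from its neighbor beyond counting error in either library. Retinal progenitors were lower, at 0.735 CPM (0.443 to 1.15) and 1.11 CPM (0.796 to 1.52), with Axin2 detected in 0.815% and 1.10% of cells, or 0.174% and 0.178% after thinning, against 0 and 0.238% of erythroid cells (0 and 0.246% after thinning). Low levels were not particular to them. Immune cells, at 1.48 and 1.43 CPM, did not differ from progenitors beyond counting error. Neurogenic progenitors held 2.69 CPM in both libraries, muscle 3.16 and 3.96 CPM and endothelial cells 3.57 and 3.76 CPM. Retinal ganglion cells held 4.36 and 2.99 CPM and photoreceptor precursors 4.46 and 5.94 CPM.

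Lef1 was highest in ciliary margin cells by the mean of both libraries, though not in the mutant, at 92.5 CPM (50.6 to 155) in control and 47.2 CPM (24.4 to 82.4) in mutant cells, from 14 and 12 UMIs. Surface epithelium held 34.7 CPM (25.7 to 45.7) and 67.7 CPM (56.5 to 80.5), and Pax2/Zic1 cells 44.9 CPM (27.0 to 70.1) and 40.9 CPM (24.2 to 64.6). Surface epithelium changed place between the libraries, while ciliary margin lay above Pax2/Zic1 cells in both, with intervals that overlapped. The mean margin level of 69.8 CPM became 118 CPM at up to 5% mitochondrial UMIs and 15.8 CPM without the 5 richest cells per library. Surface epithelium was highest without the 5 richest cells (36.7 CPM) and with the Zic1-rich cluster undivided (51.2 CPM), and Schwann cells were highest after thinning (59.0 CPM). Mesenchyme at 27.4 and 21.7 CPM, RPE at 15.8 and 15.6 CPM and retinal progenitors at 7.51 and 8.77 CPM followed in the same order in both libraries.

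Nkd1 was highest in Pax2/Zic1 cells, as Sp5 was. These cells held 220 CPM (177 to 269) and 211 CPM (170 to 259), from 93 UMIs in each library. Retinal progenitors held 64.7 CPM (61.6 to 67.8) and 60.3 CPM (57.8 to 62.9), and mesenchyme 60.1 CPM (57.7 to 62.7) and 51.5 CPM (48.9 to 54.3), while RPE held 15.8 and 14.5 CPM. At least 1 UMI was found in 47.9% of control and 44.4% of mutant progenitors (13.0% and 11.0% after thinning), against 1.46% and 1.43% of erythroid cells (0.437% and 0.493% after thinning). In the same progenitors Axin2 and Sp5 were both below 2 CPM and Lef1 was at 7.51 and 8.77 CPM.

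Sp5 was high in 1 class and low or absent in most others. Pax2/Zic1 cells held 137 CPM (104 to 177) and 88.5 CPM (63.0 to 121), surface epithelium 11.8 CPM (6.87 to 18.9) and 31.7 CPM (24.2 to 40.8), and mesenchyme 3.12 CPM (2.58 to 3.74) and 3.05 CPM (2.44 to 3.76). Both steps in this order were larger than counting error in both libraries. Without the 5 cells per library richest in each gene, which can only lower a level, the mean of both libraries in Pax2/Zic1 cells fell from 113 to 52.4 CPM for Sp5, from 215 to 127 CPM for Nkd1 and from 193 to 114 CPM for Wnt7b, and these cells were still the highest class for each. The ciliary margin had 0 UMIs in both, and the progenitors 11 and 5 UMIs, each in 3 cells.

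**Figure D2:**
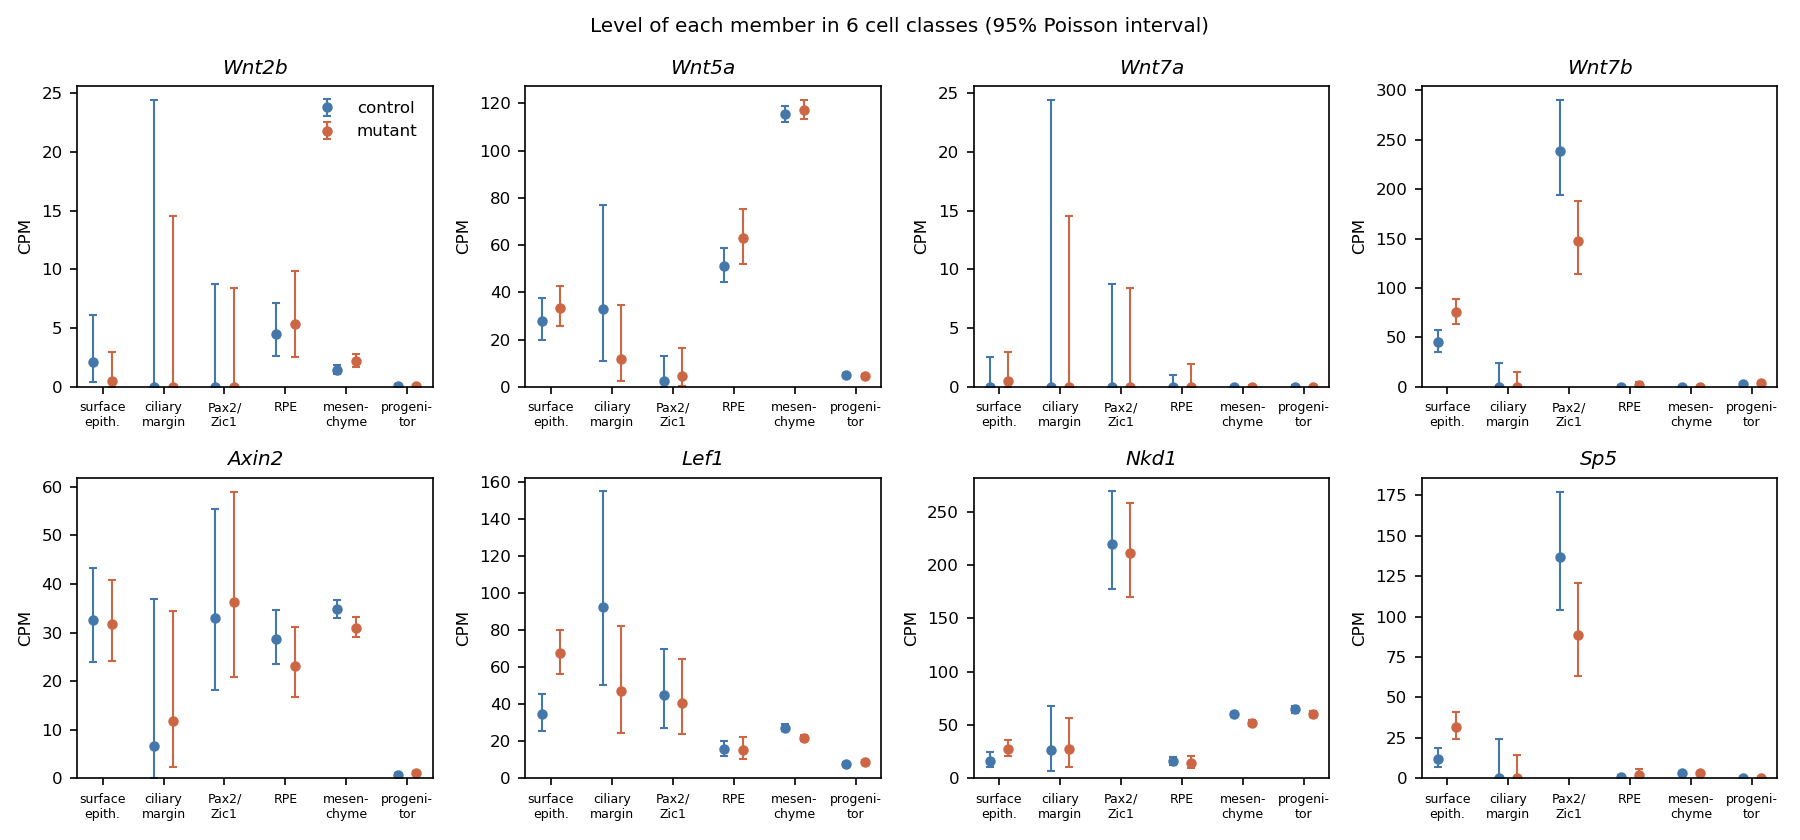
CPM of each member in the 6 classes, control in blue and mutant in red, with exact 95% Poisson intervals for counting error only and a separate vertical scale for each gene. Wnt5a falls from mesenchyme to RPE to surface epithelium in both libraries, and the intervals of the 14 and 19 ciliary margin cells are wide.

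Over all 32 values (16 classes in 2 libraries), each of 14026 genes with at least 200 UMIs was compared with each member on the log2(CPM + 1) scale, as a description of pattern in which values from the same library share depth. Wnt7b and Sp5 were each other's most similar gene, with a Pearson r of 0.935. For Sp5 the next were Ntn1 (0.873) and Cldn3 (0.864), and for Wnt7b Mpped1 (0.855) and Cldn3 (0.851). Wnt5a was most like Mmp11 (0.849), Col11a1 (0.833) and Cldn10 (0.829). Axin2 was most like Mgst1 (0.839), Tnfrsf19 (0.824) and Sema3b (0.824), Lef1 most like Celsr1 (0.846), Pcdh7 (0.839) and Col18a1 (0.826), and Nkd1 most like Tmem218 (0.851), Dync2h1 (0.848) and Wasf1 (0.841). Among the 4 response genes themselves r ranged from 0.416 for Lef1 with Nkd1 to 0.549 for Axin2 with Lef1. Wnt2b and Wnt7a had under 200 UMIs and were left out.

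The mesenchyme consisted of 5 clusters, in which ligand and response genes had different peaks. Wnt5a was highest in the cluster led by Mfap5 and Osr2, at 171 CPM (control) and 168 CPM (mutant), and in the cluster led by Scx and Gas2, where Scx marks tendon precursors, at 153 and 151 CPM. Wnt2b was mostly in the Mfap5/Osr2 cluster, with 42 of its 54 control and 46 of its 61 mutant UMIs in mesenchyme. The 3 response genes Axin2, Lef1 and Nkd1 peaked instead in the cluster led by Matn4 and Kera, the latter a keratan sulfate proteoglycan of the corneal stroma. There Axin2 reached 66.5 and 56.7 CPM, Lef1 54.5 and 43.7 CPM, and Nkd1 119 and 83.8 CPM. In the Scx/Gas2 cluster, with nearly the top Wnt5a level, the same genes were at 19.6 and 12.5, 9.33 and 8.96, and 24.6 and 29.0 CPM. Sp5 was highest in the cluster led by Spp1 and Ecm1, at no more than 7.42 CPM.

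**Figure D3:**
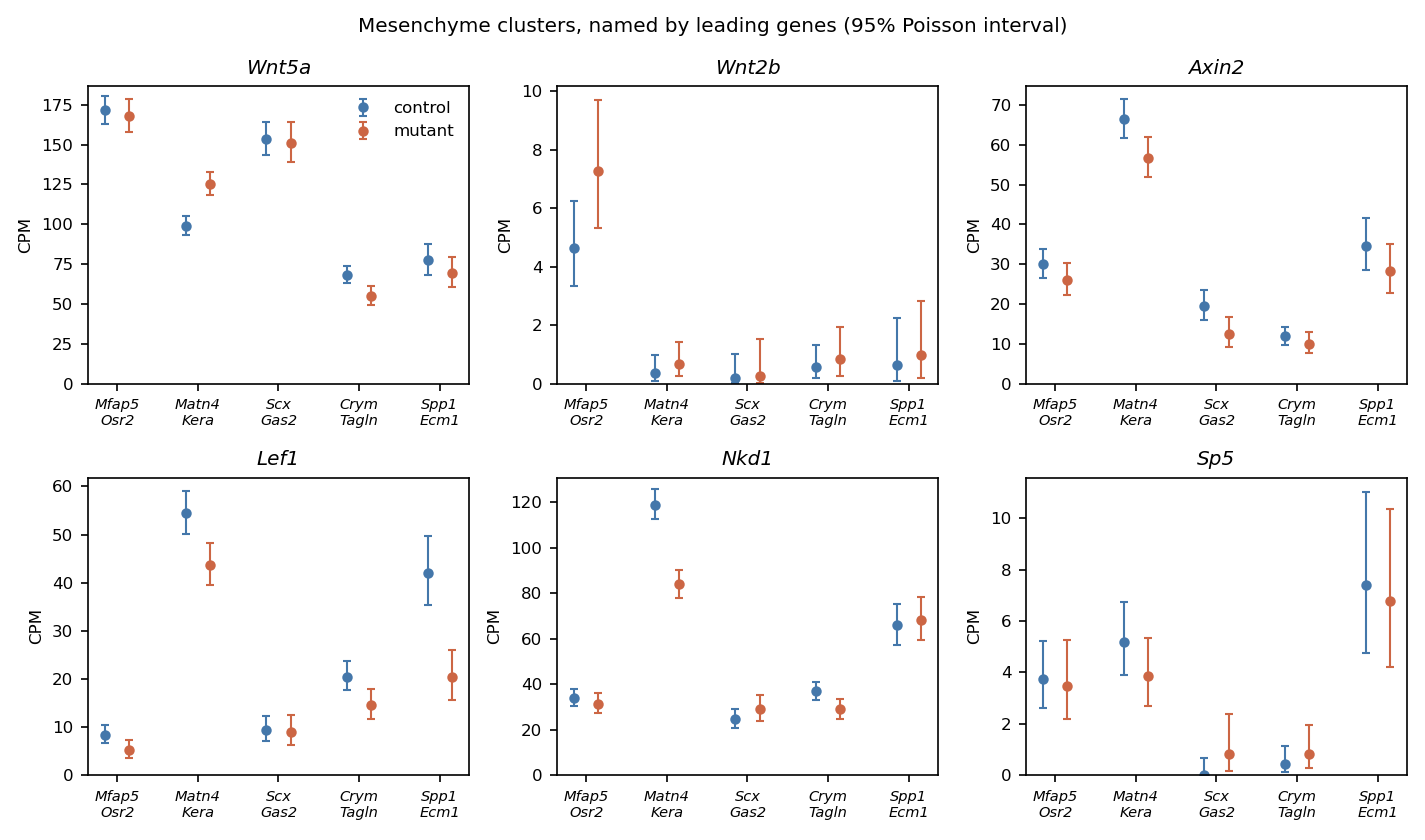
CPM of 6 members in the 5 mesenchyme clusters, named by their first 2 leading genes, control in blue and mutant in red, with exact 95% Poisson intervals. Wnt5a is highest in the Mfap5/Osr2 and Scx/Gas2 clusters and Axin2, Lef1 and Nkd1 in the Matn4/Kera cluster.

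Retinal progenitors formed 4 clusters, led mostly by cell cycle genes. Nkd1 was present in all 4, from 51.2 CPM in control and 42.8 CPM in mutant cells in the cluster led by Ccnb2 to 75.3 and 74.0 CPM in the cluster led by Ung, a base excision repair gene expressed around the start of S phase. Wnt7b was likewise highest in the Ung cluster, at 5.74 and 6.44 CPM, against 2.00 to 2.25 CPM in the control and 2.44 to 4.06 CPM in the mutant in the other 3. Lef1 varied less, from 6.47 to 9.32 CPM in the control and from 7.39 to 9.96 CPM in the mutant.

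The Pax2/Zic1 cells and the ciliary margin cells came from the same Zic1-rich cluster yet differed in Wnt7b and Sp5. In the 33 margin cells of both libraries Wnt7b and Sp5 were at 0 UMIs, with an upper 95% limit of 9.09 CPM for each, and the ligand gene Wnt8b was also at 0. Lef1 was at 64.1 CPM (41.9 to 93.9) and Nkd1 at 27.1 CPM (13.5 to 48.5) in the same cells. The Pax2/Zic1 cells fell into 3 sub-clusters of 42, 25 and 19 cells over both libraries. Wnt7b was at 256 CPM (209 to 312) in the largest, 67.7 CPM (37.9 to 112) in the next and 202 CPM (151 to 266) in the smallest. Sp5 followed the same order at 164, 4.51 and 127 CPM, and Nkd1 at 285, 63.2 and 242 CPM. The largest and the smallest shared the homeobox gene Nkx6-1 at 159 and 155 CPM, and the smallest was rich in the cell cycle gene Top2a (785 CPM), while the 25 cells had Nkx6-1 at 9.02 CPM. These separations rest on few cells, and where doublets were kept and cells clustered anew, the margin class held 6 and 11 cells and was the highest class for Wnt7b (232 CPM) and Sp5 (140 CPM), so the split between the classes was not stable.

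Within Pax2/Zic1 cells, Sp5 was detected in 19 of the 28 control cells with a Wnt7b UMI (67.9%) and in 25.0% of the others, and in 14 of the 24 such mutant cells (58.3%) and in 27.8% of the others. Cells with a Wnt7b UMI were also deeper, with medians of 11397 against 5857 UMIs in the control and 12012 against 8082 UMIs in the mutant. The part of depth in this joint detection was not tested.

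The surface epithelium was divided, after the data were seen, into 5 sub-clusters named here by leading genes. Wnt7b was highest in the 63 cells led by Lor and Angptl4, with the keratin gene Krt14, at 130 CPM over both libraries (106 to 157). Those cells also held Lef1 at 106 CPM (84.9 to 131) and the epithelial ligand genes Wnt4 at 1234 CPM and Wnt6 at 983 CPM, but Nkd1 and Sp5 at 0 UMIs each and Axin2 at 12.3 CPM (5.92 to 22.7). The 37 cells led by Aard and Crisp1 held most Wnt5a for their size, at 82.5 CPM (58.1 to 114). Their Axin2 level differed in rank between the libraries, at 29.5 CPM from 5 UMIs in the control, below the BC100530/Gabrp (48.9 CPM) and Ube2c/Atoh7 (40.6 CPM) cells, and at 71.8 CPM from 20 UMIs in the mutant, above all other sub-clusters. The 27 cells led by Serpinb3a and Krtdap held Wnt7b at 80.6 CPM (57.3 to 110).

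Nkd1 and Sp5 were concentrated in a different sub-cluster of 45 cells, led by the cell cycle gene Ube2c and by Atoh7, a proneural gene. Its 20 control cells held Nkd1 at 49.6 CPM and Sp5 at 38.3 CPM, and its 25 mutant cells held them at 71.5 and 80.1 CPM. In all, Sp5 was detected in 11 of the 190 epithelial cells, 2 control and 9 mutant, of which 9 were in this sub-cluster and 2 among the Aard/Crisp1 cells. None of the 11 had a Wnt7b UMI, against 34 of 79 control and 59 of 100 mutant cells without Sp5. Nkd1 was at 123 CPM in the cells with Sp5 and at 6.94 CPM in the others. The cells with Sp5 were deep, with medians of 43417.5 UMIs in the control and 46173 UMIs in the mutant, against 15982 and 13887.5 UMIs in the others.

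**Figure D4:**
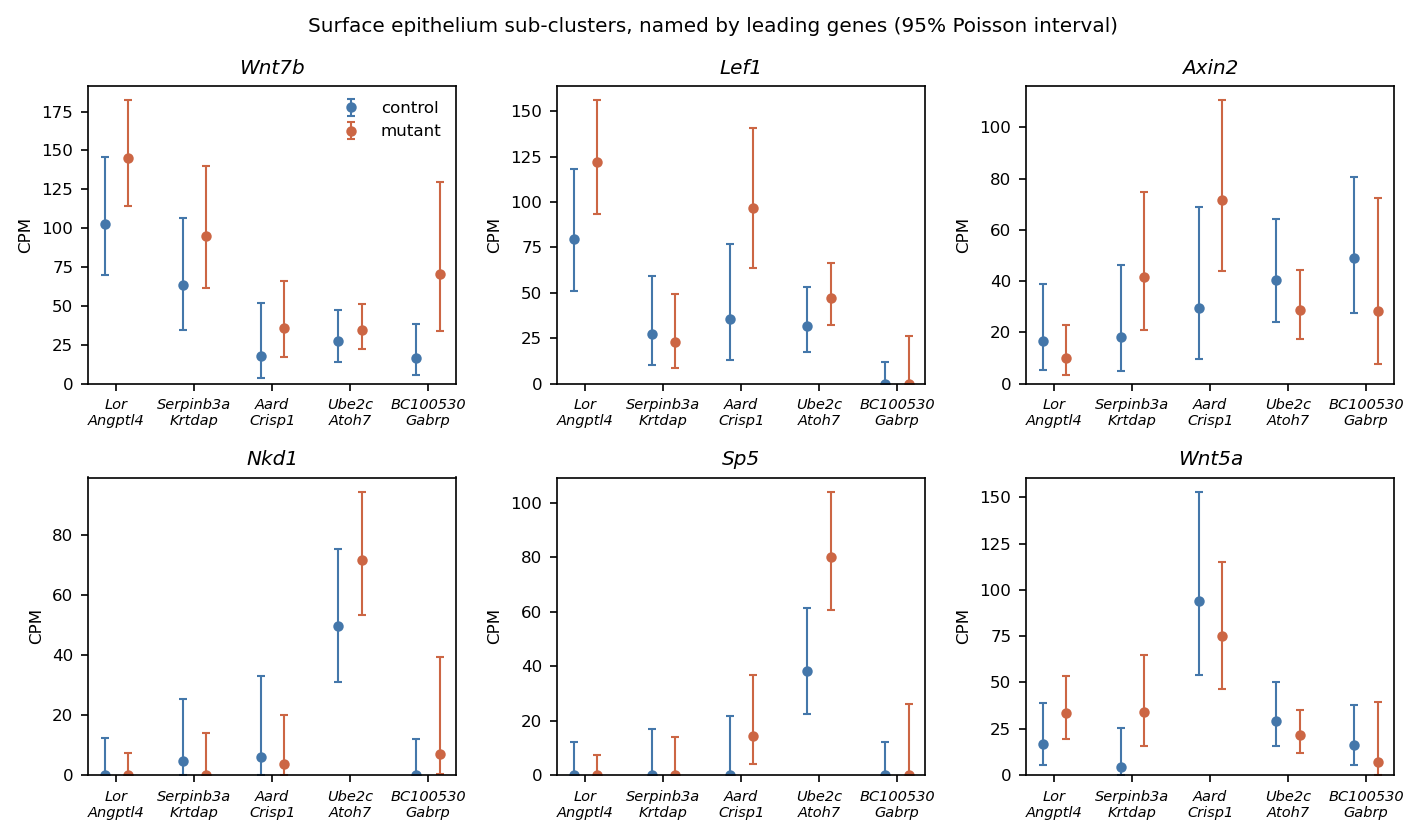
CPM of 6 members in the 5 surface epithelium sub-clusters, named by their first 2 leading genes, control in blue and mutant in red, with exact 95% Poisson intervals. Wnt7b and Lef1 are highest in the Lor/Angptl4 cells and Nkd1 and Sp5 in the Ube2c/Atoh7 cells.

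To compare the genotypes, a gene with at least 20 UMIs over both libraries was called past the fold where the ratio of mutant to control CPM was at least 1.5 or at most its inverse and its exact 95% counting interval left out 1. In surface epithelium 4 of the 6 members that could be compared were past the fold, all higher in the mutant, beside 7.92% of all 9828 genes. Sp5, at 17 UMIs in control and 60 in mutant epithelium, had a ratio of 2.69 (1.55 to 4.92). Lef1 had 50 and 128 UMIs, a ratio of 1.95 (1.40 to 2.76), and Wnt7b 65 and 143 UMIs, a ratio of 1.68 (1.24 to 2.28). Nkd1 had 24 and 52 UMIs, a ratio of 1.65 (1.00 to 2.80), at the limit of the rule. Axin2, from 47 to 60 UMIs, had a ratio of 0.973 (0.653 to 1.46), and Wnt5a, from 40 to 63 UMIs, one of 1.20 (0.795 to 1.83). The median log2 ratio of the 6 was 0.73, against -0.02 over all genes compared in that class.

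The 4 higher genes were not highest in the same cells. Lef1 was higher in the mutant in 3 of the 4 sub-clusters that had it, namely 1.53-fold (0.942 to 2.56) in Lor/Angptl4, 2.74-fold (1.11 to 8.12) in Aard/Crisp1 and 1.495-fold (0.779 to 3.02) in Ube2c/Atoh7 cells. Wnt7b was higher in the mutant in all 5, by ratios of 1.27 to 4.33, of which only the ratio of 4.33 (1.35 to 16.2), in the 18 cells led by BC100530 and Gabrp, had an interval that left out 1. Sp5 had a ratio of 2.09 (1.20 to 3.84) within the Ube2c/Atoh7 cells, where Nkd1 had a ratio of 1.44 (0.857 to 2.50). With the mutant levels weighted to the control make-up of sub-clusters, the ratios were 1.66 for Wnt7b, 1.58 for Lef1, 1.44 for Nkd1 and 2.23 for Sp5. In the mutant the 5 richest cells held 86.7% of the Sp5 UMIs and 75.0% of the Nkd1 UMIs, against 21.7% for Wnt7b and 23.4% for Lef1. Without cells over 20000 UMIs the Sp5 ratio was 1.13, and where cells over 5% mitochondrial UMIs were left out the Wnt7b ratio was 1.21. After thinning to 2000 UMIs per cell the Lef1 ratio turned to 0.679, on few UMIs, and no member was past the fold in any class.

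Markers of other cell types moved with genotype in the same cells. The 7 neurogenic progenitor markers summed to 155 CPM in control and 484 CPM in mutant epithelium, with Atoh7 at 42.3 and 291 CPM, and the 8 retinal progenitor markers to 747 and 1040 CPM. All members of both lists were detected in both libraries, and Atoh7, the most abundant neurogenic marker in the mutant, is among the leading genes of the sub-cluster that held Sp5 and Nkd1. The 8 erythroid markers summed to 10216 and 6593 CPM, with 7 of the 8 detected in the control and all in the mutant. The 8 retinal ganglion cell markers summed to 21.5 and 117 CPM, with 6 detected in the control and all in the mutant, and the 6 photoreceptor precursor markers to 38.8 and 84.6 CPM, with 5 and 6 detected. The part of these markers in the 4 ratios was not tested.

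In Pax2/Zic1 cells 2 of the 5 members compared were past the fold, both lower in the mutant, beside 7.22% of 5924 genes. Wnt7b had a ratio of 0.618 (0.446 to 0.853), from 101 to 65 UMIs, and Sp5 one of 0.646 (0.419 to 0.986), from 58 to 39 UMIs. Nkd1, with 93 UMIs in each library, had a ratio of 0.961 (0.713 to 1.30), Axin2 one of 1.10 (0.502 to 2.43) and Lef1 one of 0.910 (0.451 to 1.83). The median log2 ratio of the 5 was -0.14, against 0.03 over all genes. Wnt7b was lower in the mutant in all 3 sub-clusters, at ratios of 0.688 (0.437 to 1.06), 0.240 (0.0435 to 0.889) and 0.704 (0.390 to 1.29). Among Xist-positive cells without Y-linked UMIs, 36 control and 20 mutant cells, the ratios were 0.682 for Wnt7b and 0.668 for Sp5, just inside the fold limit, so neither was past it.

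Markers of neural classes moved with genotype in the Pax2/Zic1 cells too. The 7 neurogenic progenitor markers summed to 146 CPM in control and 568 CPM in mutant cells, with 6 and 7 of them detected and Atoh7 at 9.45 and 213 CPM. The 6 photoreceptor precursor markers summed to 18.9 and 90.8 CPM, with 4 detected in each library. The 8 retinal progenitor markers, all detected, summed to 1951 and 2254 CPM, with 6 of the 8 higher in the mutant, among them Fgf15 at 113 and 266 CPM and Dapl1 at 104 and 279 CPM, and with Hes1, the most abundant, at 829 and 654 CPM and Six6 at 354 and 286 CPM. The part of these markers in the ratios was not tested.

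In the other 4 of the 6 main classes no member was past the fold. Lef1, the only member compared in ciliary margin, had a ratio of 0.510 (0.215 to 1.19), beside 4.95% of genes past the fold there. In RPE 0 of 5 were, beside 5.78% of 10982 genes, with ratios of 1.23 (0.969 to 1.55) for Wnt5a, 1.20 (0.491 to 2.77) for Wnt2b, 0.804 (0.551 to 1.15) for Axin2, 0.985 (0.610 to 1.56) for Lef1 and 0.917 (0.560 to 1.47) for Nkd1. In retinal progenitors 0 of 5 were, beside 2.63% of 13858 genes, with ratios from 0.932 for Nkd1 to 1.51 for Axin2, the latter from 19 and 40 UMIs (0.857 to 2.77). In mesenchyme 0 of 6 were, beside 5.68% of 14685 genes. There Lef1 at 0.794 (0.717 to 0.878), Nkd1 at 0.857 (0.802 to 0.916) and Axin2 at 0.890 (0.816 to 0.970) were lower in the mutant by more than counting error though by less than the fold, Wnt5a was at 1.01 (0.970 to 1.06), and Wnt2b, from 54 to 61 UMIs, at 1.4999 (1.02 to 2.20) was just under it. In the same cells the 10 mesenchyme markers summed to 15441 and 20302 CPM, the 7 neurogenic progenitor markers to 81.7 and 181 CPM, the 8 retinal progenitor markers to 287 and 417 CPM and the 8 erythroid markers to 7858 and 5222 CPM, all of them detected in both libraries, and their part in the ratios was not tested. The median log2 ratio of the members compared was -0.02 in RPE (all genes -0.06), -0.10 in mesenchyme (-0.01) and 0.22 in retinal progenitors (-0.02). The direction of Wnt5a in RPE depended on the cells used, with ratios of 0.871 among Xist-positive cells without Y-linked UMIs and 2.02 after thinning. Over the 6 classes this made 6 of 28 comparisons of members, 4 higher and 2 lower.

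**Figure D5:**
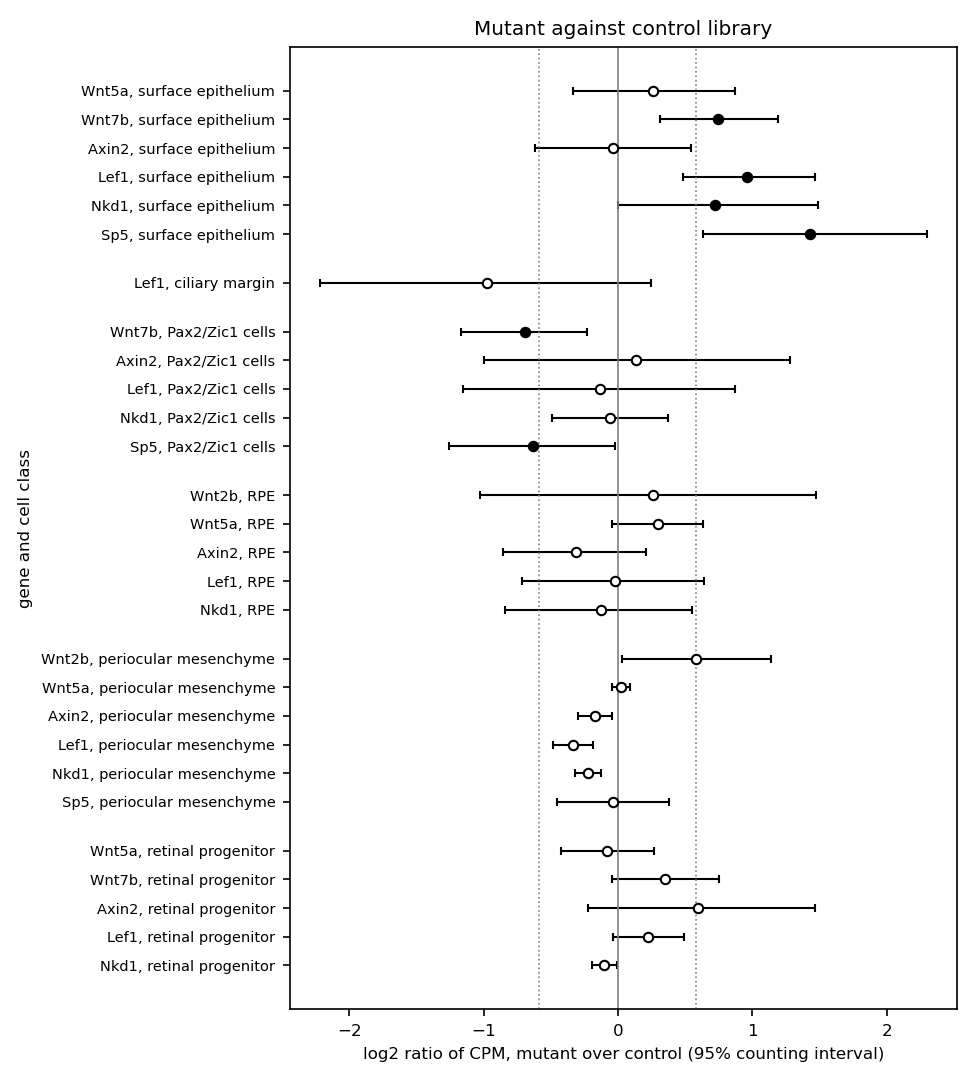
Log2 ratio of CPM, mutant over control, for the 28 comparisons of members, with exact 95% counting intervals. Filled points are past the fold, dotted lines mark 1.5-fold in either direction, and the filled points lie right of 0 in surface epithelium (4) and left of 0 in Pax2/Zic1 cells (2).

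Within mesenchyme the Matn4/Kera cluster, with the highest response gene levels, had ratios of 0.705 (0.644 to 0.772) for Nkd1, 0.802 (0.704 to 0.912) for Lef1 and 0.853 (0.760 to 0.957) for Axin2, and its Wnt5a ratio was 1.26 (1.16 to 1.38). In the Spp1/Ecm1 cluster Lef1 had 136 and 63 UMIs, a ratio of 0.483 (0.352 to 0.656), while Nkd1 was at 1.04 (0.854 to 1.26). Among Xist-positive cells without Y-linked UMIs, the ratios over the whole mesenchyme were 0.911 for Lef1 and 0.953 for Nkd1.

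In the other 10 named classes 4 of 27 member comparisons were past the fold, 1 higher and 3 lower in the mutant. Schwann cells had 29 control and 12 mutant Lef1 UMIs, 47.9 and 17.7 CPM, a ratio of 0.369 (0.172 to 0.746), beside 7.31% of all genes past the fold there. Nkd1 in melanocytes was 51.5 and 84.5 CPM, a ratio of 1.64 (1.00 to 2.69), beside 6.86% of genes. Wnt5a in neurogenic progenitors was 4.42 and 2.45 CPM, a ratio of 0.555 (0.337 to 0.907), beside 2.69% of genes. Lef1 in retinal ganglion cells was 4.36 and 2.45 CPM, from 32 and 23 UMIs, a ratio of 0.562 (0.314 to 0.991), beside 3.07% of genes. Amacrine or horizontal cells held Wnt5a at 17.4 and 14.7 CPM and both control and 1 of the 2 mutant Wnt7a UMIs. Where members were compared and none was past the fold, the shares of all genes were 3.91% in photoreceptor precursors, 3.68% in amacrine or horizontal cells, 5.96% in muscle, 5.27% in endothelial and 6.99% in immune cells, and in erythroid cells no member could be compared.

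The rest of the pathway was read from a list of 68 genes over the same 6 classes. Of 233 comparisons, 14 were past the fold higher and 7 lower in the mutant, and 212 were not, where 2.63% to 7.92% of all genes were past it in each class. Other ligands with at least 20 UMIs numbered 10 of 15 in surface epithelium, 9 in mesenchyme, 4 in RPE, 3 in retinal progenitors, 1 in Pax2/Zic1 cells and 0 in ciliary margin. The epithelium was the richest source, with Wnt4 at 641 CPM (control) and 626 CPM (mutant), Wnt6 at 576 and 539 CPM, and Wnt10a at 149 and 175 CPM. The 1 other ligand of the Pax2/Zic1 cells was Wnt8b at 154 and 145 CPM, and the leading one of mesenchyme was Wnt11 at 31.3 and 42.0 CPM. Wnt5b followed in mesenchyme at 15.6 and 14.6 CPM and led the other ligands of retinal progenitors at 10.3 and 9.33 CPM. Wls, which carries Wnt proteins to the cell surface, was at 263 and 226 CPM in surface epithelium.

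In RPE, where Myrf was lower in the mutant, 8 of 41 other pathway genes were past the fold, beside 5.78% of all genes. The receptor gene Fzd4 was lower, from 279 to 54 UMIs, a ratio of 0.395 (0.289 to 0.530), as was the antagonist gene Wif1, from 369 to 86 UMIs, at 0.475 (0.371 to 0.602). Dkk1 (21 to 3 UMIs) and the response gene Rnf43 (19 to 1 UMIs) were also lower, at 0.291 (0.0556 to 0.976) and 0.107 (0.00258 to 0.675). The ligand genes Wnt4 (13 to 22 UMIs) and Wnt16 (25 to 24 UMIs) were higher, at 3.45 (1.66 to 7.46) and 1.96 (1.07 to 3.57), as were Rspo4, an R-spondin, at 2.77 (1.32 to 5.96) and the antagonist gene Sfrp2 at 1.54 (1.42 to 1.68). Lgr4, the R-spondin receptor gene, was at 99.3 and 111 CPM, and the receptor gene Fzd2 at 105 and 96.2 CPM, neither past the fold. The 8 retinal progenitor markers, all detected, summed to 451 CPM in control and 805 CPM in mutant RPE, with Fgf15 at 43.7 and 114 CPM and Ccnd1 at 153 and 335 CPM, and Sfrp2 was at 339 and 523 CPM in RPE beside 1333 and 954 CPM in retinal progenitors. The part of these markers in the RPE ratios was not tested. Fzd4 and Wif1 were also past the fold with mitochondrial UMIs limited to 5%, without cells over 20000 UMIs, among Xist-positive cells without Y-linked UMIs and after thinning. Wnt16 was so in the first and the third of these settings, and Wnt4, Rspo4, Sfrp2, Dkk1 and Rnf43 in none of them.

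In surface epithelium 4 of 43 other pathway genes were past the fold, a share near the 7.92% of all genes, and all were higher, namely Wnt16 at 4.76 (1.65 to 18.8), Fzd5 at 2.92 (1.16 to 8.77), Sfrp2 at 1.80 (1.36 to 2.42) and Dkk3 at 1.52 (1.10 to 2.13). Fzd5, Sfrp2 and Dkk3 were also abundant in retinal progenitors, with Sfrp2 at 1333 and 954 CPM and Dkk3 at 446 and 461 CPM there. In Pax2/Zic1 cells the R-spondin gene Rspo3 at 2.96 (1.51 to 6.24) and Dkk3 at 2.36 (1.45 to 3.97) were higher, 2 of 26 compared, which is near the 7.22% of all genes. Dkk3 is among the genes abundant in retinal progenitors, and the part of the progenitor and neurogenic markers given above for these cells was not tested. In ciliary margin, of 16 compared, Dkk3 was higher at 1.503 (1.01 to 2.28) and Sfrp2 lower at 0.443 (0.277 to 0.701), beside 4.95% of all genes. In mesenchyme Fzd5 at 2.28 (1.70 to 3.08) and Rspo2 at 1.57 (1.25 to 1.97) were higher, 2 of 60, beside 5.68% of all genes. In retinal progenitors Dkk2 was higher at 1.87 (1.39 to 2.55), and Lgr5 at 0.621 (0.515 to 0.748) and Tnfrsf19 at 0.575 (0.337 to 0.974) were lower, 3 of 47, beside 2.63% of all genes.

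Of the receptor genes, Ryk was among the 3 highest in all 6 classes, joined by Fzd2 and Lrp6 in surface epithelium, RPE and mesenchyme, by Fzd2 and Fzd5 in ciliary margin, by Fzd3 and Fzd8 in Pax2/Zic1 cells and by Fzd3 and Fzd5 in retinal progenitors. Fzd2 was at 203 CPM in control and 191 CPM in mutant mesenchyme, and Fzd5 at 150 and 149 CPM in retinal progenitors. Among secreted antagonists, Dkk2 led in mesenchyme at 821 and 823 CPM, Sfrp1 in RPE at 612 and 657 CPM and in surface epithelium at 105 CPM in both libraries, and Sfrp2 in retinal progenitors and Pax2/Zic1 cells, where Wif1 was at 198 and 234 CPM. Lgr4 was the highest gene of the R-spondin list in 5 of the 6 classes, and Rspo1 followed it in mesenchyme at 26.1 and 22.9 CPM. In Pax2/Zic1 cells Lgr4 was above Rspo3 in the control (33.1 against 28.3 CPM) and below it in the mutant (47.7 against 84.0 CPM).

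The core intracellular genes were led by the same genes throughout. Ctnnb1, which encodes β-catenin, Csnk1a1 and Gsk3b were the 3 highest of the 9 in every one of the 6 classes, with Ctnnb1 at 394 and 388 CPM in surface epithelium and 247 CPM in both libraries in retinal progenitors. None that could be compared was past the fold, and neither was Tcf7l1 or Tcf7l2, which encode TCF factors. In ciliary margin only 4 of the 9 and 1 of the 2 TCF factor genes could be compared, and in Pax2/Zic1 cells 7 of the 9. Of the other response genes, Tnfrsf19 was at 25.0 and 30.7 CPM in surface epithelium and 26.6 and 27.4 CPM in RPE, Nkd2 at 31.0 and 27.8 CPM in mesenchyme and 39.7 and 70.7 CPM in ciliary margin, and Znrf3 at 10.5 and 10.7 CPM in retinal progenitors. Znrf3 also led in Pax2/Zic1 cells, at 28.3 and 20.4 CPM. By the mean of both libraries, Kremen1 and Tcf7 were below the leading gene of each class.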

How the data were processed

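The deposited matrices held whole-number UMI counts of each gene in each barcode, not normalized by the authors, for 1 Myrf fl/fl and 1 Rx>cre Myrf fl/fl library, and feature tables with gene identifiers and symbols. Per the labels, cells were dissociated with papain and libraries were made with the 10x 3′ kit. The submitters' processing notes name Cell Ranger 7.1.0, Seurat 4.1.1 and mm10, whereas version 3.1.0 stands in the headers of the matrices.

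Barcodes with under 200 genes or over 15% mitochondrial UMIs were left out, as were doublets called by Scrublet per library (scanpy 1.11.5, expected rate 0.8% per 1000 barcodes), 424 control and 442 mutant, fewer than that rate, so doublets remained. Counts were scaled to 10000 per cell, log-transformed and clustered over both libraries on 1888 variable genes with 30 principal components, 15 neighbors and Leiden resolution 1.0. These features left out the members, the other Wnt pathway genes, the markers used for names, Xist, and all mitochondrial, haemoglobin and Y-linked genes. Of 32 clusters, 28 were named from marker lists, and 4, with 22.5% of control and 20.8% of mutant cells, were not. The split of the Zic1-rich cluster and the sub-clusters of surface epithelium were made after the data were seen. The members, gene lists and rules were chosen with earlier results of these data known.

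For each gene, class and library UMIs were summed and divided by the class total (CPM, total UMIs of 119935157 in the control and 124005651 in the mutant over all kept cells). Sums carry exact Poisson intervals, ratios exact conditional binomial intervals and shares Clopper-Pearson intervals, all at 95% and for counting error only. Ratios were not taken with 3 or fewer counts in each library. With 1 library per genotype no test was made. Thinning drew 2000 UMIs per cell and left out shallower cells. All members were named, and of each pathway list the 3 highest genes of a class and any past the fold were to be named. Those past the fold are all named, but of the 3 highest only a part is, and some genes with many UMIs were left out. Genes most like a member were the 3 with the highest r. Alternatives covered cell filters, doublets, sex, depth, scaling (edgeR 4.0.16 TMM), clustering, limits, the richest cells and free RNA. The ratio with weighted sub-clusters, the whole Zic1 cluster and cells of at least 3000 UMIs were added after the data were seen.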

Additional observations from a re-analysis of the deposited data

Results flagged for a closer look

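The ratio of mutant to control moved in opposite directions in 2 classes for 2 members. For Wnt7b it was 1.68 in surface epithelium and 0.618 in Pax2/Zic1 cells, and for Sp5 it was 2.69 and 0.646. With 1 library per genotype the difference between the classes was not tested. Cells of the clusters that stayed unnamed, which no comparison used, held 1478 control and 1130 mutant UMIs of the 8 members, above the 3 counts that a count of 0 allows. Of these, Wnt5a in the cluster led by Rgs5, Mgp and Acta2 made up 574 and 366 UMIs, at 96.2 CPM (88.5 to 104) and 96.9 CPM (87.2 to 107).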

How the results depend on the processing

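The 6 member comparisons past the fold became 2 without cells over 20000 UMIs (Wnt7b and Lef1 in surface epithelium), 0 of 14 testable after thinning to 2000 UMIs, and 1 at a fold limit of 2 (Sp5 in surface epithelium). With TMM-scaled totals and at Leiden resolution 2.0 they became 7, in each case the same 6 and 1 added. The 21 other pathway comparisons became 8 after thinning, of which 4 were among the 21 and 4 were not, 13 at a minimum of 50 UMIs and 12 at a fold limit of 2, all of them among the 21. Of the 21, 11 were kept and 9 others added at a mitochondrial share of up to 5% and likewise without cells over 20000 UMIs, and 9 were kept and 8 added among Xist-positive cells. The class with the highest level, given for 7 members, was retained for 4 with doublets kept, for 4 after thinning, for 3 with the Zic1 cluster kept whole and for 5 without the 5 richest cells. With that cluster whole there was no Pax2/Zic1 class, so Wnt7b, Nkd1 and Sp5 had to change class. They were then highest in the undivided cluster, which holds the same cells. Of 331 alternative levels of members, 68 moved beyond the counting interval. The ratio of Lef1 in surface epithelium turned to 0.679 after thinning, where few UMIs remain. Limiting the mitochondrial share to 5% kept 4 of the 6 calls, losing Wnt7b and Nkd1 in surface epithelium, and Xist-positive cells without Y-linked UMIs also kept 4, losing both Pax2/Zic1 calls. With doublets kept, 26 pathway comparisons were past the fold, of which 16 of the 21 were shared and 1 was opposite. Of 344 alternative ratios of members, 321 stayed within the counting interval and 22 moved further, of which 8, such as Wnt5a in RPE, were not past the fold and crossed 1. Of the ratios past the fold, that of Lef1 after thinning was the 1 that turned. No paired analysis was possible because there was 1 library per genotype and no replicate number. Depth limits Wnt2b and Wnt7a everywhere and all members in the ciliary margin.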

Other observations

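The 11 surface epithelium cells with Sp5, a group chosen after the data were seen and described without a test, all had the epithelial adhesion gene Epcam, at 708 CPM against 516 CPM in the other 179 cells. Cdh1, also an epithelial adhesion gene, was lower, at 61.7 against 74.0 CPM, and was detected in 10 of the 11 and 97 of the 179. Sox10, a neural crest and glandular transcription factor, was detected in 9 of the 11 and in 1 of the 179. Asns, Etv4, Col9a3 and Rhoj were picked from the genes with the largest ratios in this same comparison. Asns was at 234 CPM against 12.2 CPM, the ETS factor gene Etv4 at 101 against 3.82 CPM, Col9a3 at 165 against 12.2 CPM and Rhoj at 106 against 2.08 CPM. Krt14 was at 441 against 956 CPM.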
